A study of Mus musculus with 12 samples.

Results

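The relaxin peptides and their receptors were examined in mouse brain cortex through 5 genes, the receptor genes *Rxfp1*, *Rxfp2* and *Rxfp3* and the peptide genes *Rln1* and *Rln3*. The 5 genes were selected by their symbols from the 33024 gene symbols of the count table, and 4 of the 5 passed the filter on low counts. *Rxfp1* was chosen by its readout, since it was among the genes with the smallest p for a higher level in ethanol-drinking mice, so its difference between the groups is given below as a description with no test. Cortex RNA came from 12 C57BL/6 mice, 7 in the Control group (treatment label Vehicle, water only) and 5 in the EtOH group. In the EtOH group, adolescent wildtype mice chose between a water bottle and a bottle of diluted ethanol on repeated nights. Both groups then rested without ethanol and went through behavioural tests before the tissue was taken. The comparison thus asks what differed in the cortex after abstinence and testing. Mice were perfused with saline before the cortex was cut out and frozen, and the labels do not tell which part of the cortex a library holds.

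Relaxin peptides are small hormones of the insulin superfamily, with paired chains held together by disulphide bonds. RXFP1, the receptor of relaxin, and RXFP2, the receptor of insulin-like peptide 3 (INSL3), carry a large leucine-rich repeat domain outside the cell and act mainly through Gs proteins and cyclic AMP, whereas RXFP3, the receptor of relaxin-3, is a small peptide receptor that couples to Gi proteins and lowers cyclic AMP. In the rodent brain, relaxin-3 is made chiefly by neurons of the nucleus incertus in the brainstem, whose axons reach the forebrain, while relaxin is best known for remodelling connective tissue in pregnancy and for dilating blood vessels.

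The 3 receptor genes lie on different chromosomes and differ in structure. On the GRCm39 build, *Rxfp1* lies at chr3:79548868-79645280 on the minus strand with 18 exons in its canonical transcript, *Rxfp2* at chr5:149942140-150005649 on the plus strand, also with 18 exons, and *Rxfp3* at chr15:11033803-11038077 on the minus strand with 1 exon. The 250 bases before the most upstream annotated start of each receptor gene are shown, because these 3 genes differed between the groups in different directions. They were read 5′ to 3′ on the gene's strand at chr3:79645281-79645530 (minus), chr5:149941890-149942139 (plus) and chr15:11038078-11038327 (minus), with every CpG dinucleotide in capitals:
Rxfp1: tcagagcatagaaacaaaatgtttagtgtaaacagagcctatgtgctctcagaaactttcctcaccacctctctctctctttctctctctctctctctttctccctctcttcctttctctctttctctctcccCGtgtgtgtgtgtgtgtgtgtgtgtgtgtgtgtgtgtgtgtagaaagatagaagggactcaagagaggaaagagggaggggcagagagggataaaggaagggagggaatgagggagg
Rxfp2: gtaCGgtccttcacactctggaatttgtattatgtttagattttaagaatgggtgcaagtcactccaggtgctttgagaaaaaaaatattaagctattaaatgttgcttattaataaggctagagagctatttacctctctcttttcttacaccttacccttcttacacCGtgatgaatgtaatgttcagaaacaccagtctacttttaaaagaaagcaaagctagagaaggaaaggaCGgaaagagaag
Rxfp3: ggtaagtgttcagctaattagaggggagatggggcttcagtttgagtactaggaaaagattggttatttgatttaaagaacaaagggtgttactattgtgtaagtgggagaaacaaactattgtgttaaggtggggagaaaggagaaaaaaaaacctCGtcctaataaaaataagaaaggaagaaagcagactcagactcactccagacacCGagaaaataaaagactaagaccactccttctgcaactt
The *Rxfp1* window holds 1 CpG, at the join of a run of ct repeats and a run of tg repeats, the *Rxfp2* window holds 3 and the *Rxfp3* window holds 2. Over the same window of 21729 annotated promoters the median was 6 CpG (quartiles 2 and 13), and 35.3% held at most 3, so CpG-poor windows such as these are common. The G and C content was 47.6% for *Rxfp1*, 36% for *Rxfp2* and 38.4% for *Rxfp3*, beside a median of 51.2% over all promoters. These windows are a description of the sequence, and no measurement of binding or methylation was analysed here.

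Total counts ranged from 31768079 to 42183031 per mouse, with 19284 to 19921 genes detected, and in a library of this size 3 counts correspond to a normalised read count of 0.0695 to 0.0962 CPM (counts scaled to a common library total). Levels are given as CPM after TMM (trimmed mean of M values) normalisation, and a gene was called when its adjusted p by edgeR's quasi-likelihood test was under 0.05 and its log2 fold change was above 0.5 in size. Of the 16059 genes tested, 674 were called higher and 657 lower in EtOH. Cortex markers (among them *Slc17a7*, *Tbr1* and *Neurod6*) were present in every library, with a summed level of 2284 to 2766 CPM in Control and 2198 to 2758 CPM in EtOH. *Slc17a7* made up most of these sums, at a mean of 1954 CPM in Control and 1905 CPM in EtOH. Of the 7 cortex markers, 1 was called higher (*Fezf2*, log2 fold change 0.60, edgeR adjusted p 0.0001), beside 8.29% of all genes called. At any fold, 4 of the 7 had an edgeR adjusted p under 0.05, beside 23.7% of all genes tested. Of these 4, *Fezf2*, *Cux2* (log2 fold change 0.31) and *Neurod6* (0.26) lay higher and *Tbr1* (−0.40) lower. The sums of striatum and hippocampus markers did not overlap between the groups. The 10 striatum markers summed to 989 to 2369 CPM in Control and 233 to 302 CPM in EtOH. The 9 hippocampus markers summed to 41.2 to 46.7 CPM in Control and 148 to 195 CPM in EtOH. The part of these markers in the receptor results was not tested.

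*Rxfp1* had the highest level of the 5 genes and lay about 3-fold higher in the EtOH mice. The 5 EtOH mice measured 55.0, 62.2, 62.3, 55.6 and 66.1 CPM of *Rxfp1*. The 7 Control mice ranged from 15.0 to 21.8 CPM of *Rxfp1*, with a median of 20.4 CPM. The groups did not overlap, and the lowest EtOH mouse stood 2.52 times above the highest Control mouse. The mean level was 18.8 ± 2.73 CPM in Control (SD, n = 7) and 60.3 ± 4.79 CPM in EtOH (SD, n = 5), a ratio of 3.20. On the log2 scale the fitted difference was 1.68 ± 0.09 (SE), which is not corrected for the choice of the gene on this contrast. The estimate rested on 490 to 845 counts per mouse in Control and 1833 to 2374 in EtOH, so counting error was small, and *Rxfp1* also varied little among the EtOH mice (coefficient of variation 7.96%, beside 14.5% in Control). In bulk tissue, more cells that hold a transcript and more transcript per cell cannot be told apart, nor can fewer cells and less RNA per cell, for this gene or any other given here.

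Ranked by p among the 674 genes called higher, *Rxfp1* stood at place 3, behind *Gm2115* (log2 fold change 2.11) and *Gpr161* (2.46) and ahead of *Adcy8* (1.14). These ranks are the readout by which *Rxfp1* was selected and are given to place it.

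**Figure D1:**
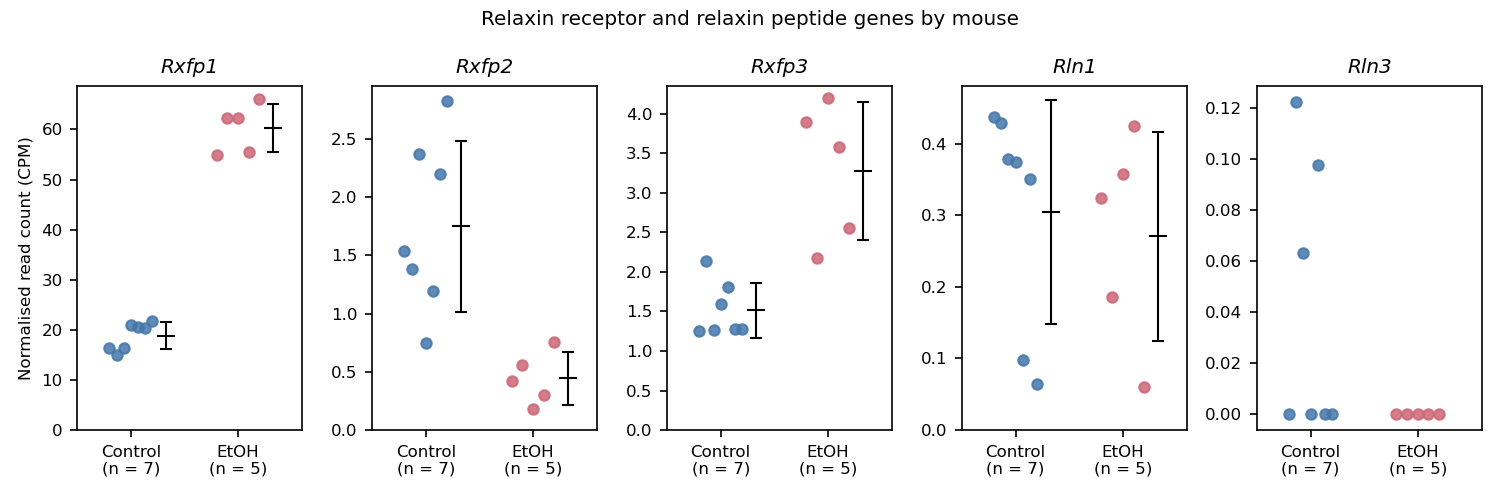
Normalised read counts (CPM, linear axis, a separate scale for each gene) of the 3 receptor genes and the 2 peptide genes, with 1 point per mouse, 7 Control mice in blue and 5 EtOH mice in red; the bars beside the points give the mean ± SD and are left out for *Rln3*. *Rxfp1* and *Rxfp3* lie higher in all 5 EtOH mice than in any Control mouse, *Rxfp2* lies lower in EtOH with an overlap of 1 mouse in each group, *Rln1* overlaps widely and *Rln3* is at 0 in 9 of the 12 mice.

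*Rxfp2*, the INSL3 receptor gene and the closest relative of *Rxfp1* among these genes, differed in the opposite direction and fell in EtOH. In EtOH, *Rxfp2* measured 0.417, 0.560, 0.179, 0.303 and 0.760 CPM. In Control, *Rxfp2* ranged from 0.750 to 2.82 CPM, with a median of 1.53 CPM. Of the 5 EtOH mice, 4 lay below every Control mouse, and EtOH 5 (0.760 CPM) lay just above Control 4 (0.750 CPM), so the groups touched at 1 mouse each. The mean was 1.75 ± 0.733 CPM in Control (SD, n = 7) and 0.444 ± 0.226 CPM in EtOH (SD, n = 5), a ratio of 0.254. The log2 fold change of *Rxfp2* was −1.97 ± 0.36 (SE), with a 95% interval from −2.73 to −1.21 and an adjusted p of 0.000791 by edgeR's quasi-likelihood test over all genes tested. *Rxfp2* was scarce, with 24 to 88 counts per mouse in Control and 6 to 25 in EtOH, and it spread widely between mice (coefficient of variation 41.9% in Control and 50.9% in EtOH). In the annotation, 357 of its exon bases (6.27%) overlap *Gm42557* on the opposite strand, and reads of that stretch cannot be assigned to either gene without strand.

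*Rxfp3*, the relaxin-3 receptor gene, rose in EtOH. The 5 EtOH mice measured 3.89, 2.18, 4.20, 3.58 and 2.55 CPM of *Rxfp3*. The 7 Control mice ranged from 1.25 to 2.14 CPM of *Rxfp3*, with a median of 1.28 CPM. Every EtOH mouse lay above every Control mouse, although the margin was narrow: EtOH 2 and Control 2 differed by a ratio of 1.02 and held 70 counts each. Mean levels were 1.52 ± 0.349 CPM in Control (SD, n = 7) and 3.28 ± 0.875 CPM in EtOH (SD, n = 5), a ratio of 2.16. The log2 fold change of *Rxfp3* was 1.11 ± 0.19 (SE), with a 95% interval from 0.70 to 1.52 and an edgeR adjusted p of 0.000555 over all genes tested. The values rested on 40 to 74 counts per mouse in Control and 70 to 168 in EtOH.

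Of the 4 members tested, 2 were called higher (*Rxfp1* and *Rxfp3*) and 1 lower (*Rxfp2*), while *Rln1* was not called. Over all genes tested the share called was 8.29%, with 4.2% called higher and 4.09% called lower. The share of all genes with every EtOH mouse above every Control mouse was 4.84%, and the share with every EtOH mouse below was 4.96%; *Rxfp1* and *Rxfp3* belonged to the former and no member to the latter. The call of *Rxfp1* is fixed by how it was chosen, and nothing is read from it.

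The peptide genes were near the limit of detection. *Rln1*, which encodes relaxin in the mouse and lies at chr19:29308570-29312070, had 14, 14, 12, 12, 4, 11 and 2 counts in Control 1 to 7 and 14, 6, 12, 14 and 2 counts in EtOH 1 to 5. The groups overlapped almost entirely, at 0.305 ± 0.156 CPM in Control (SD, n = 7) and 0.271 ± 0.146 CPM in EtOH (SD, n = 5). The log2 fold change of *Rln1* was −0.14 ± 0.47 (SE), with an edgeR adjusted p of 0.855, and its 95% interval from −1.13 to 0.85 leaves changes of either sign within reach, so a difference was not detectable at this depth. Leaving out EtOH 5 alone, the mouse with 2 counts, turned the sign of this value to 0.10.

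*Rln3*, the relaxin-3 gene at chr8:84769290-84771629, was too scarce to test. It had 0, 4, 2, 0, 4, 0 and 0 counts in Control 1 to 7 and 0 counts in each of the 5 EtOH mice. A count of 0 allows up to 3 counts per mouse if counts are independent of each other. No fold change is given, because the levels of both groups lie at or near that limit. Thus the *Rxfp3* transcript was measured in all 12 mice while the transcript of its peptide was seen in 3, all of them Control mice. Of the 51 counts above 0 among the 5 genes, 38 were even. Over all gene symbols with whole counts, 74.8% of the counts from 1 to 10 and 55.2% of those from 101 to 300 were even. How read pairs were counted is not given in the sources used here. Limits from 3 counts take counts as independent and may be too low if they are not.

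Levels of different genes were set side by side per kilobase of annotated exon. Over the union of all annotated exons, the Control order was *Rxfp1* (1.35 ± 0.197 CPM per kilobase), *Rxfp3* (0.355 ± 0.082), *Rxfp2* (0.307 ± 0.129), *Rln1* (0.087 ± 0.045) and *Rln3* (0.045 ± 0.059), each as the mean level and SD over 7 mice. On this scale *Rxfp3* and *Rxfp2* did not differ beyond their spread, nor did *Rln1* and *Rln3*. In EtOH the same scale gave *Rxfp1* 4.34 ± 0.345, *Rxfp3* 0.767 ± 0.205, *Rxfp2* 0.078 ± 0.040 and *Rln1* 0.077 ± 0.042 CPM per kilobase (SD, n = 5), so *Rxfp2* and *Rln1* did not differ beyond their spread. Over the canonical transcript alone, the Control levels were 0.689 ± 0.289 CPM per kilobase for *Rxfp2*, 0.409 ± 0.210 for *Rln1*, 0.355 ± 0.082 for *Rxfp3* and 0.045 ± 0.059 for *Rln3* (SD, n = 7). The EtOH levels on the canonical length were 0.767 ± 0.205 CPM per kilobase for *Rxfp3*, 0.363 ± 0.196 for *Rln1* and 0.175 ± 0.089 for *Rxfp2* (SD, n = 5). The order of *Rxfp2*, *Rxfp3* and *Rln1*, and the gap between *Rln1* and *Rln3*, thus depend on the length used, whereas *Rxfp1* was the highest of the 5 under both lengths in both groups.

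Among the other genes of the family, none of the peptides or peptide receptors was called. *Insl5*, which encodes the peptide of the gut receptor RXFP4, was at 0.723 ± 0.155 CPM in Control (SD, n = 7) and 0.655 ± 0.204 CPM in EtOH (SD, n = 5), with an edgeR adjusted p of 0.731. *Insl3* (0 to 9 counts per mouse), *Insl6* (0 to 12 counts) and *Rxfp4* (0 counts in all 12 mice) were not tested, and every exon base of *Insl3* overlaps another gene. Hence transcripts of INSL3, the peptide of RXFP2, were not clearly seen in these libraries.

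The relatives of *Rxfp1* and *Rxfp2* with leucine-rich repeat domains, which bind glycoprotein hormones or R-spondins, differed unequally. *Lgr5*, an R-spondin receptor that marks stem cells in the gut, fell in the same direction as *Rxfp2*, from 9.49 ± 3.18 CPM in Control (SD, n = 7) to 3.31 ± 0.507 CPM in EtOH (SD, n = 5). Its log2 fold change was −1.52 ± 0.22 (SE), with an edgeR adjusted p of 7.64e-05, and all 5 EtOH mice (2.61 to 3.87 CPM) lay below all 7 Control mice (4.83 to 13.3 CPM). *Lgr4*, another R-spondin receptor, stood at 29.3 ± 2.96 CPM in Control and 34.8 ± 0.829 CPM in EtOH, a log2 fold change of 0.25 with an edgeR adjusted p of 0.0123, which is under the fold minimum. *Lgr6* had a log2 fold change of −0.65 with an edgeR adjusted p of 0.146, and its Control mice alone spanned 2.63 to 13.2 CPM. Of the glycoprotein hormone receptors, *Lhcgr* (log2 fold change −0.85, edgeR adjusted p 0.0713) and *Tshr* (−0.34, edgeR adjusted p 0.425) were not called, and *Fshr* showed 2 counts in 1 EtOH mouse and 0 in all others.

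Genes of relaxin receptor signalling were followed through a list of 44, all of which passed the filter. In EtOH, 4 of the 44 were called higher, 3 lower and 37 not at all, beside 8.29% of all genes called in either direction, and the median log2 fold change of the list was −0.05, beside 7.17e-05 over all genes tested. By role, the calls fell on 4 of the 10 adenylyl cyclases, 1 of the 6 G protein alpha subunits, 1 of the 3 nitric oxide synthases and 1 of the 7 genes of the PI3K, AKT and PKC zeta branch. At any fold, 19 of the 44 had an edgeR adjusted p under 0.05, beside 23.7% of all genes tested, among them the protein kinase A subunits *Prkar2b* (log2 fold change −0.49) and *Prkar1b* (−0.35), which stayed under the fold minimum.

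Within the adenylyl cyclases, which make cyclic AMP, the changes went in opposite directions. *Adcy8*, a calcium-stimulated cyclase, rose from a mean of 20.5 CPM in Control (17.8 to 21.8 CPM over 7 mice) to 45.0 CPM in EtOH (42.1 to 47.0 CPM over 5 mice), with a log2 fold change of 1.14 ± 0.06 (SE) and an edgeR adjusted p of 1.46e-09. *Adcy1*, also stimulated by calcium and calmodulin, rose by a log2 fold change of 0.65 ± 0.12 (SE), from 766 to 1199 CPM (edgeR adjusted p 0.00071). *Adcy10*, the soluble cyclase that responds to bicarbonate and is not driven by G proteins, was scarce at 0.663 CPM in Control and rose to 1.48 CPM in EtOH (log2 fold change 1.15, edgeR adjusted p 0.00118). *Adcy5*, the main cyclase of striatal neurons, fell from 465 ± 80.0 CPM in Control to 175 ± 19.5 CPM in EtOH, a log2 fold change of −1.41 ± 0.12 (SE) with an edgeR adjusted p of 1.84e-07.

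*Gnal*, the alpha subunit that pairs dopamine and adenosine receptors with *Adcy5* in the striatum, fell together with it, from 274 ± 33.7 CPM in Control (SD, n = 7) to 131 ± 9.39 CPM in EtOH (SD, n = 5), a log2 fold change of −1.07 with an edgeR adjusted p of 1.03e-07. *Gnas*, the general Gs alpha subunit, had a log2 fold change of −0.25 with an edgeR adjusted p of 0.047 and was not called, since it lay under the fold minimum. *Nos1*, the neuronal nitric oxide synthase, rose from 58.8 ± 5.82 to 112 ± 26.4 CPM (log2 fold change 0.93, edgeR adjusted p 1.67e-05), and the kinase gene *Akt2* fell from 126 ± 12.6 to 85.8 ± 9.34 CPM (log2 fold change −0.55, edgeR adjusted p 8.56e-05). *Gnal* and *Adcy5* fell in the same mice as the 10 striatum markers, every one of which was called lower, and the part of those markers in either result was not tested.

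**Figure D2:**
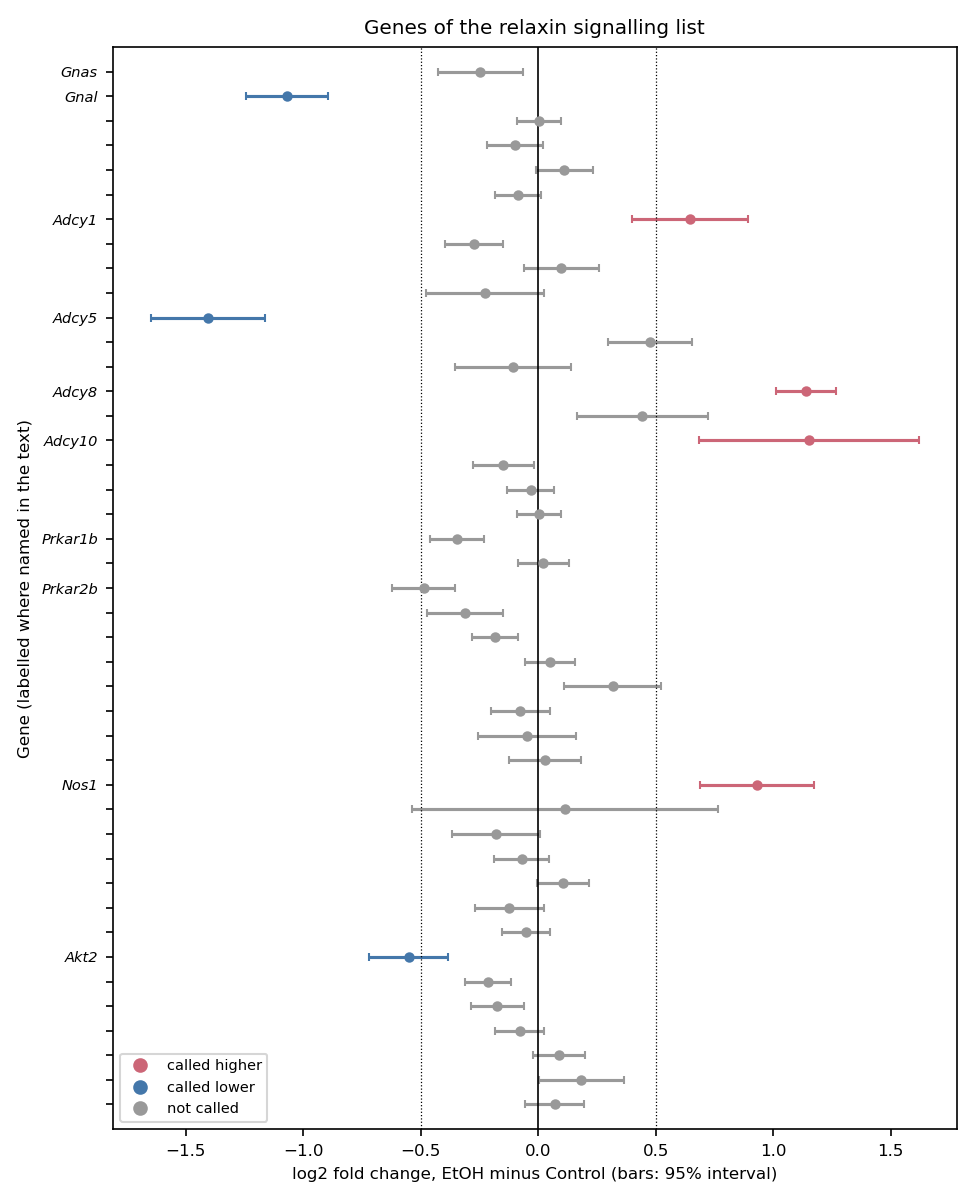
Log2 fold changes (EtOH minus Control, 7 Control and 5 EtOH mice) of genes of the relaxin signalling list, all but 1 of the 44 and labelled where named in the text, with 95% intervals as bars, a solid line at 0 and dotted lines at the fold minimum of 0.5 in either direction. The 4 genes called higher (red: *Adcy1*, *Adcy8*, *Adcy10* and *Nos1*) and the 3 called lower (blue: *Gnal*, *Adcy5* and *Akt2*) are those past the fold minimum with an adjusted p under 0.05, and the intervals of some of them overlap those of genes in grey, which were not called.

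The listed genes that process the peptides and the listed genes that relaxin is known to act on held no call. Of 7 genes that cut and trim propeptides, such as the convertases *Pcsk1* and *Furin*, 0 were called by edgeR, with a median log2 fold change of 0.14 and 3 genes at an unadjusted p under 0.05. The same 3 also had an edgeR adjusted p under 0.05 at any fold, beside 23.7% of all genes tested, and lay under the fold minimum: *Pcsk2* (log2 fold change −0.27, adjusted p 0.00188), *Pcsk5* (0.25, adjusted p 0.0234) and *Cpe* (0.15, adjusted p 0.0266). The list of genes that relaxin is known to act on held 14, among them collagens, matrix metalloproteinases and genes of the TGF-beta pathway. Of these 14, 13 were tested and 0 were called by edgeR, with a median log2 fold change of 0.10. At an unadjusted p under 0.05 stood 4 genes, and 1 had an edgeR adjusted p under 0.05 at any fold. DESeq2 and limma voom also called 0 genes of either list. *Col5a1*, a fibrillar collagen chain outside these lists, was called higher (log2 fold change 1.61, edgeR adjusted p 2.44e-07). It is described below among the genes nearest to *Rxfp1*.

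Beside these results, all 10 striatum markers were called lower and 8 of the 9 hippocampus markers were called higher, the exception being *Trpc6*. Of 6 thalamus markers, 1 was called higher (*Slc17a6*), with a summed level of 53.1 to 58.3 CPM in Control and 65.9 to 89.6 CPM in EtOH. The 4 claustrum markers summed to 171 to 237 CPM in Control and 206 to 319 CPM in EtOH, with *Nr4a2* called higher. Of 7 hypothalamus markers, 2 were abundant enough to test, edgeR called 0 of them (0 at an unadjusted p under 0.05, and 0 by DESeq2 or limma voom), and *Sim1* was at 0 in every EtOH mouse and at a mean of 0.0179 CPM in Control, under the level of 3 counts; their sum was 1.53 to 3.86 CPM in Control and 1.61 to 1.97 CPM in EtOH. Of the other cell types, 2 of 6 interneuron markers and 2 of 5 oligodendrocyte markers were called lower, 1 of 5 astrocyte markers (*Gfap*) was called higher, and edgeR called 0 of 5 microglia markers (4 at an unadjusted p under 0.05, and 0 called by DESeq2 or limma voom), beside 8.29% of all genes called. At an edgeR adjusted p under 0.05 and any fold stood 3 of 6 interneuron, 5 of 5 oligodendrocyte, 3 of 5 astrocyte and 3 of 5 microglia markers, beside 23.7% of all genes tested. The summed levels were 983 to 1242 and 792 to 898 CPM for interneurons, 4048 to 5409 and 2690 to 4839 CPM for oligodendrocytes, 790 to 889 and 960 to 1062 CPM for astrocytes, and 248 to 273 and 221 to 245 CPM for microglia, in Control and EtOH in that order. The part of these markers in the receptor results was not tested.

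Region markers and receptors also varied between mice of the same group. Control 7 had the lowest striatum sum of the Control mice (989 CPM) and their highest *Rxfp1* (21.8 CPM) and *Rxfp2* (2.82 CPM). Control 2 had their highest striatum sum (2369 CPM), their lowest *Rxfp1* (15.0 CPM) and their highest *Rxfp3* (2.14 CPM). In EtOH, EtOH 1 combined the highest striatum sum (302 CPM) with the lowest *Rxfp1* (55.0 CPM), EtOH 5 combined the lowest hippocampus sum (148 CPM) with the highest *Rxfp1* (66.1 CPM) and *Rxfp2* (0.760 CPM), and EtOH 2 combined the highest hippocampus sum (195 CPM) with the lowest *Rxfp3* (2.18 CPM).

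Over the 7 Control mice, 9 relations between the 3 receptors and the striatum, hippocampus and thalamus sums were computed, and none passed with all 7 mice. *Rxfp1* against the striatum sum gave Pearson's r = −0.57 (exact two-sided permutation p = 0.177, adjusted p = 0.534) and Spearman's rho = −0.61 (exact permutation p = 0.167, adjusted p = 0.5), and without the 2 mice farthest from the median striatum sum r was 0.19, so this relation rested on those mice. *Rxfp2* against the thalamus sum gave r = −0.60 (exact permutation p = 0.16, adjusted p = 0.534) and rho = −0.79 (exact permutation p = 0.048, adjusted p = 0.432), with r = −0.83 without the 2 farthest mice. Without Control 6 alone this relation passed (r = −0.92, exact permutation, adjusted p = 0.0125), and with the mean log2 CPM of the markers in place of their sum r was −0.099 (exact permutation, adjusted p = 0.833). The adjusted p of Pearson's r lay between 0.534 and 0.91 for the 9 relations by the exact permutation test, and 7 mice can only show strong relations. Within Control the hippocampus sum spanned only 41.2 to 46.7 CPM and the thalamus sum 53.1 to 58.3 CPM. In EtOH these sums reached 148 to 195 and 65.9 to 89.6 CPM. Relations over so narrow a Control range cannot show how a receptor goes with a difference as wide as that between the groups. With 5 mice, EtOH was too small for such a relation.

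**Figure D3:**
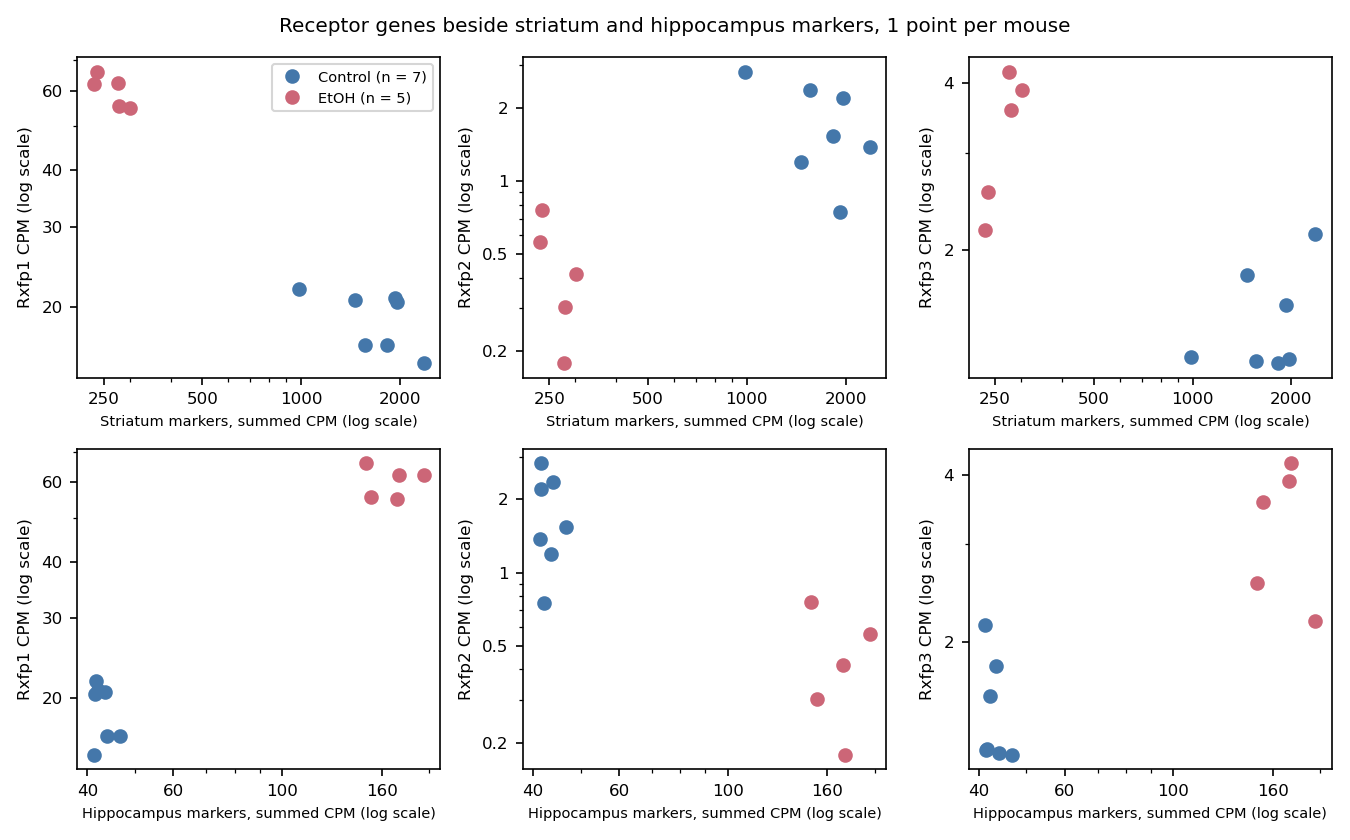
Level of *Rxfp1*, *Rxfp2* and *Rxfp3* (CPM, log scale, left to right) against the summed level of 10 striatum markers (upper row) and 9 hippocampus markers (lower row; CPM, log scale), with 1 point per mouse, 7 Control in blue and 5 EtOH in red. The groups stand apart on both marker axes (233 to 302 against 989 to 2369 CPM, and 148 to 195 against 41.2 to 46.7 CPM). None of the relations of a receptor with these sums passed over the 7 Control mice, whose hippocampus sums span a narrow range.

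The genes whose pattern over the 12 mice was nearest to each member were found by the root mean square difference of log2 CPM after each gene's mean was subtracted. For *Rxfp1* these were *Met*, the hepatocyte growth factor receptor (0.178), *Vwa3b* (0.204), *Col5a1*, a fibrillar collagen chain (0.209), *Glp2r*, the receptor of glucagon-like peptide-2 (0.222), and the lipoxygenase gene *Aloxe3* (0.245), while the median gene lay at 0.869. In CPM, not corrected for exon length, *Col5a1* also came close to *Rxfp1*, at 20.6 ± 5.26 CPM in Control (SD, n = 7) and 62.9 ± 7.76 CPM in EtOH (SD, n = 5). *Met* ran lower in CPM, at 4.12 ± 0.787 and 13.6 ± 1.54 CPM. All 5 genes lay higher in EtOH, with log2 fold changes of 1.35 to 1.75, which the choice by likeness to *Rxfp1* over both groups largely fixes.

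For *Rxfp3* the nearest genes were *Ntng1*, which encodes the axon guidance protein netrin-G1 (0.189), *Glra3*, a glycine receptor subunit (0.194), and *Pkp2*, a plakophilin of cell junctions (0.202), beside a median of 0.641. *Ntng1* stood at 23.8 ± 4.92 CPM in Control (SD, n = 7) and 52.3 ± 9.87 CPM in EtOH (SD, n = 5). For *Rxfp2* the nearest genes were the keratin gene *Krt80* (0.454), *Gm39377* (0.514) and *Cbln2*, a synaptic organiser of the cerebellin family (0.515), beside a median of 1.11. No gene followed *Rxfp2* as closely as *Met* followed *Rxfp1*, but in EtOH *Rxfp2* held 6 to 25 counts per mouse and *Rxfp1* 1833 to 2374. Counting error widens such distances for a scarce gene, and its part here was not tested. *Cbln2*, the most abundant of the genes nearest to *Rxfp2*, stood at 46.9 ± 7.39 CPM in Control and 18.1 ± 4.79 CPM in EtOH. For *Rln1* they were *A230072E10Rik* (0.419), the homeobox gene *Irx3* (0.426) and the thromboxane receptor gene *Tbxa2r* (0.481), beside a median of 0.788. *Rln1* and *Irx3* both lie near the detection limit, where counting error shapes the pattern. Likeness here is a description over 12 mice and carries no test.

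**Figure D4:**
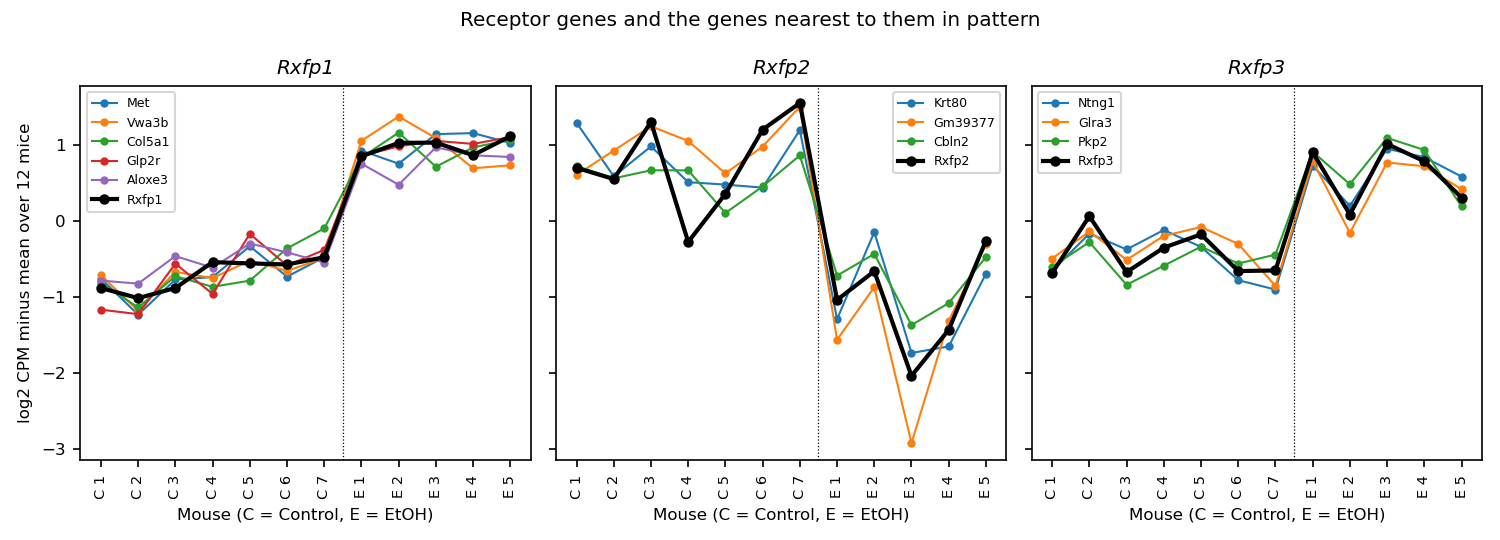
Log2 CPM minus each gene's mean over the 12 mice (y axis) for each mouse (x axis, 7 Control and 5 EtOH mice parted by a dotted line) for *Rxfp1*, *Rxfp2* and *Rxfp3* in black and the genes nearest to each in colour; the lines join the mice for the eye only, since mice of a group have no order. *Rxfp1* and *Rxfp3* lie higher in EtOH, as do their nearest genes, and *Rxfp2* and its nearest genes lie lower.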

How the data were processed

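Cortex RNA of 12 mice (7 Control, 5 EtOH) was sequenced by BGI on the DNBSEQ platform. The authors checked reads with FastQC 0.11.9, used STAR for alignment to the GRCm39 genome and featureCounts for gene counts, and deposited expected counts per gene symbol with no normalization. Strand, multi-mapping and read-pair settings of the counting are not given in the sources used here. The study's own comparison used DESeq2. Values were rounded, since 61 of 33024 gene symbols have fractional entries. Columns were matched to mice by name, with 0 unmatched, and 0 rows named no gene.

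Genes were filtered with filterByExpr and tested with edgeR's quasi-likelihood test, TMM factors and Benjamini-Hochberg adjustment over 16059 genes (R 4.3.3, edgeR 4.0.16, limma 3.58.1), and the thresholds for a call (adjusted p 0.05, log2 fold change 0.5 in either direction) follow the study. All 12 mice entered the fit, with no covariate. Log2 CPM used a prior count of 2. The fits were tested on simulated data. No record ties a mouse to a litter, cage or batch, so p-values measure the spread between these mice. Relations within Control used exact permutation tests over all pairings of mice (two-sided; SciPy 1.17.1), whose smallest p is 0.000198. Limits from 3 counts cover counting error only and take counts as independent. No pair of libraries of a group agreed within sampling noise.

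The members and the gene lists were chosen with earlier results of these data known. Genes named are the 5 members, all genes of the relaxin family list, the called genes of the other relaxin lists, and the 5 (*Rxfp1*) or 3 (other members) genes nearest in pattern. *Gm2115* and *Gpr161*, the marker genes, *Gnas*, *Pcsk1*, *Furin*, *Pcsk2*, *Pcsk5*, *Cpe* and the signalling genes under the fold minimum were named outside that rule, after their values were seen. Single values of some listed genes were left out, and the counts include those genes. Positions, exon lengths and promoter windows come from the Gencode release M39 annotation and the GRCm39 genome, a newer annotation than the authors used. Alternatives were DESeq2 1.42.0, limma voom, other scaling factors, filters and fold minimums, the replicate number as a block, and each mouse left out in turn. Counts halved and the fit without the deepest library of each group were added after the data were seen.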

Additional observations from a re-analysis of the deposited data

Results flagged for a closer look

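In 43 groups of values (the level of each member, tested family gene and marker list, and the total counts, by group), the sample farthest out was compared with the rest of its group, and 4 groups held a sample farther from the others than Dixon's 95% critical value, where chance alone gives about 2.15. None of the 4 was a receptor or peptide gene. Total counts were highest by far in Control 5 (40690226, the next 32356909) and EtOH 1 (42183031, the next 33313165), so each group holds 1 deeper library. The hypothalamus markers summed to 3.86 CPM in Control 5 (next 2.47 CPM), and the astrocyte markers to 1062 CPM in EtOH 3 (next 986 CPM). *Rxfp1* measured 20.6 CPM in Control 5 and 62.3 CPM in EtOH 3, inside the range of the other mice of each group, and 55.0 CPM in EtOH 1, the lowest of the EtOH mice (next 55.6 CPM).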

How the results depend on the processing

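*Rxfp2* and *Rxfp3* kept their direction and an adjusted p under 0.05 by the test run under every alternative that gave a value. Log2 fold changes ranged from −2.24 to −1.68 for *Rxfp2* (highest adjusted p 0.00843) and from 1.00 to 1.22 for *Rxfp3* (highest adjusted p 0.0168). For *Rxfp1* they ranged from 1.63 to 1.76. Its direction is largely fixed by its choice on this contrast, so nothing is read from its being kept. *Rln1* stayed uncalled, at −0.35 to 0.10 with 1 mouse left out, and turned positive without EtOH 5. The 1331 genes called became 3810 (1947 higher, 1863 lower) with no fold minimum and 524 (242 higher, 282 lower) with a minimum of 1, and 1162 to 1501 with 1 mouse left out. With the replicate block 1324 genes were called (690 higher, 634 lower) and no member's call changed. Replicate numbers are numbers within a group, and same-numbered mice did not deviate together (correlations of −0.11 to 0.018). Counts halved (1232 called) and the fit without the deepest library of each group changed no call among the members they gave a value for (*Rln1* gave none with counts halved). Among the 9 relations of receptors and region markers within Control, 0 to 1 passed with 1 mouse left out: without Control 6, *Rxfp2* against the thalamus markers gave r = −0.92 (exact permutation, adjusted p = 0.0125; range over alternatives 0.0125 to 0.833). Small uncalled changes turned sign for *Irx3*, *A230072E10Rik* and *Tbxa2r*, and the cause was not tested. *Irx3* gave −0.16 with the replicate block. With 1 mouse left out, only 6 fits gave a value for *Irx3*, from −0.032 (without Control 7) to 0.26. With 1 mouse left out, *A230072E10Rik* gave −0.29 to 0.049 (positive without EtOH 5) and *Tbxa2r* −0.20 to 0.018 (positive without Control 1). *Lhcgr* (adjusted p 0.0202 to 0.164) and *Lgr6* (0.0464 to 0.31) passed under some alternatives. Of 556 alternative values of 27 other named genes, 548 kept direction and side of the threshold. With at least 10 counts in every mouse, *Rln1* and *Rxfp2* gave no value. *Rln3* was fitted with a filter of at least 1 count in any mouse alone and was not called there; its fitted fold is left out, since it depends on the prior count. Among the 5 members, *Rln1* and *Rln3* had the fewest counts.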
